A study of Chlamydomonas reinhardtii with 3 samples.

Results

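Intraflagellar transport (IFT) carries building blocks of the cilium along the axoneme, and 7 of its genes were followed here in the green alga Chlamydomonas reinhardtii, the organism in which the process was discovered. They are the motor genes DHC1b and FLA10 and the genes IFT88, IFT46, IFT81, IFT172 and IFT20 of the IFT-B complex. They were picked by locus identifier, all 7 were found, and all 7 had a methylation level, out of 17326 genes with a level. The study measured cytosine methylation by whole-genome bisulfite sequencing, in which unmethylated cytosine is converted and reads as thymine, while methylated cytosine still reads as cytosine. There were 2 libraries of a cmd1 knockout (cmd1 KO) and 1 library of wild type (WT). CMD1 is an algal homolog of the TET enzymes, which oxidise methylated cytosine in animals, and the series asks how loss of CMD1 alters the methylation level. Both genotypes carry the strain name CC125, and both were grown in TAP medium at 25 °C under 20 μmol photons per square metre and second, then transferred to high salt medium under 300 μE. The sources used here do not name the knockout allele, the number of independent knockout clones or the time in high light.

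In IFT, trains of protein complexes move to the ciliary tip with a heterotrimeric kinesin and return to the cell body with a cytoplasmic dynein. The IFT-B complex carries tubulin and axonemal proteins outwards, and the IFT-A complex, of which no gene is included here, acts mainly in the return. Cells that lose a core IFT-B protein or the anterograde motor can fail to build or keep normal flagella. Cytosine methylation of nuclear genes is sparse in this alga, and no expression was measured in the libraries used here, so the values below describe DNA only.

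The deposited methylation level was higher in cmd1 KO than in WT in all 7 IFT genes. The authors' table gives each gene 1 level per genotype, the mean over the sites it lists, and the 2 cmd1 KO libraries share 1 column. There is thus no spread between replicates for any difference, and the values describe these libraries. The level was also higher in cmd1 KO in 99.1% of all genes, so the direction is that of nearly the whole table. The size of the difference varied more. The 7 genes had a median level of 8.77% in cmd1 KO (range 5.01% to 36.3%) and of 1.64% in WT (range 0.64% to 20.1%). Their median difference, cmd1 KO minus WT, was 6.98 percentage points, against 4.73 points over all genes. The differences of 6 of the 7 lay above that median of all genes. The ratio of the levels, cmd1 KO over WT, had a median of 4.99 in the 7 genes, against 5.52 over the 17293 genes with a WT level above 0, and 3 of the 7 lay above 5.52.

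**Figure D1:**
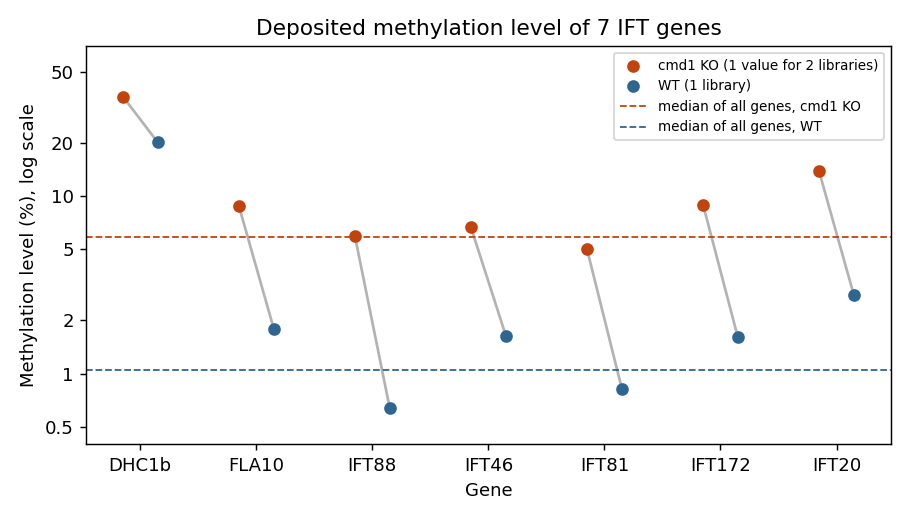
Methylation level in percent (log scale) of the 7 IFT genes, with cmd1 KO left of WT in each pair and the medians of all 17326 genes as dashed lines. DHC1b stands at 36.3% and 20.1%, and the other genes lie between 5.01% and 13.8% in cmd1 KO and between 0.64% and 2.75% in WT.

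The site lists behind these means differ between the genotypes, which touches every value here. The 7 genes had 189 listed sites in cmd1 KO and 580 in WT, and each of the 7 had fewer in cmd1 KO, as did 96.4% of all genes. In 6 of the 7, all but DHC1b, the WT mean lay below the least mean that distinct site levels in steps of 0.001 could give, so these WT lists held repeated levels. The cmd1 KO means of all 7 lay above that least mean, so their lists may have held each level once. Neither count was made over all genes. Over all genes, the upper quartile of the WT level was 1.37%, and the lower quartile of the WT site number was 58. The least mean rises with the site number and is already 1.8% at the 37 WT sites of IFT172. Repeated WT levels were thus common in the whole table. The lowest cmd1 KO level of all genes was 2.05%, and their upper quartile of cmd1 KO sites was 34. At the 36 cmd1 KO sites of IFT46 the least mean is 1.75%, so most genes lay above theirs in cmd1 KO. If repeated levels below the mean, such as many sites at 0, were dropped from the cmd1 KO lists, the cmd1 KO mean is too high. Dropped repeats above the mean would make it too low. How much of each difference comes from the lists was not tested. Lower cmd1 KO levels, each under an assumed site number, are given beside the deposited ones for this reason. They divide the summed cmd1 KO levels by a larger number of sites and count the missing sites as 0.

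The motor genes came out far apart. DHC1b (Cre06.g250300, on chromosome 6) encodes the heavy chain of the dynein that returns IFT trains to the cell body, and it was the most methylated gene of the 7 in both genotypes. Its level was 36.3% over 42 listed sites in cmd1 KO and 20.1% over 57 listed sites in WT. The cmd1 KO value is the higher by 16.3 points, a difference larger than that of 99.1% of genes. As a ratio, cmd1 KO over WT, this was 1.81, the lowest of the 7 genes and above that of only 4.0% of genes. A WT level of 10% or more was found in 3.48% of all genes, and DHC1b was the 1 gene of the 7 among them. FLA10 (Cre17.g730950, on chromosome 17) encodes a motor subunit of the anterograde kinesin, and temperature-sensitive mutants in it resorb their flagella when warmed. FLA10 stood at 8.77% over 18 listed sites in cmd1 KO and 1.79% over 72 listed sites in WT. That is 6.98 points higher in cmd1 KO, more than in 89.0% of genes.

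Most genes with a WT level like that of DHC1b had smaller differences. Only 4 other genes lay within 0.1 points of its WT level, with a median difference of 3.48 points. A wider window of 10% around its WT level, chosen after seeing the data, held 67 genes with a median difference of 5.58 points (quartiles 2.89 and 9.13). The difference of DHC1b exceeded that of 62 of these 67. Its ratio of cmd1 KO to WT site numbers, 0.74, was also low for such genes, whose median ratio was 1.24, and 2 of the 67 had a lower one. Of the 603 genes at 10% or more in WT, 110 had fewer sites listed in cmd1 KO than in WT, as DHC1b did. The sources used here do not state which part of each gene the listed sites cover.

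The core genes of IFT-B had the smallest differences. IFT88 (Cre07.g335750, chromosome 7) encodes a repeat protein whose loss leaves the alga without flagella and whose mouse counterpart is a known cystic kidney gene. It stood at 5.93% over 21 listed sites in cmd1 KO and at 0.64% over 75 listed sites in WT, 5.29 points higher in cmd1 KO. Its WT level was the lowest of the 7 and exceeded that of 10.6% of genes, while its cmd1 KO level exceeded that of 51.2%. IFT88 thus had the largest ratio of the levels among the 7, 9.30 in cmd1 KO over WT. IFT46 (Cre05.g241637, chromosome 5), needed to bring outer dynein arms into the flagellum, stood at 6.65% over 36 listed sites in cmd1 KO and 1.64% over 87 listed sites in WT, a difference of 5.01 points. IFT81 (Cre17.g723600, chromosome 17), whose human counterpart binds tubulin together with IFT74, stood at 5.01% over 39 listed sites in cmd1 KO and 0.82% over 184 listed sites in WT. Its difference of 4.18 points was the smallest of the 7 and the only one below the median of all genes. The WT site number of IFT81 exceeded that of 99.6% of genes, so its WT mean rests on one of the longest lists in the table.

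The peripheral IFT-B genes showed larger differences, on fewer sites in 1 of them. IFT20 (Cre02.g089950, chromosome 2), whose mammalian counterpart also sits at the Golgi apparatus, stood at 13.8% over 26 listed sites in cmd1 KO and 2.75% over 68 listed sites in WT. It was 11.0 points higher in cmd1 KO, more than in 97.4% of genes. Among the 48 other genes within 0.1 points of its WT level, the median difference was 5.13 points, and 89.6% of them had a smaller difference than IFT20. IFT172 (Cre17.g703900, chromosome 17), which acts in the turnaround of trains at the flagellar tip, stood at 8.93% over 7 listed sites in cmd1 KO and 1.60% over 37 listed sites in WT. It was 7.33 points higher in cmd1 KO, more than in 90.9% of genes. Fewer than 7 cmd1 KO sites were listed in 1.29% of genes. Over 7 sites, 1 fully methylated site would shift the mean by 14.3 points, more than the whole difference, which holds for IFT172 alone among the 7.

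In order of the cmd1 KO level the genes ran DHC1b, IFT20, IFT172, FLA10, IFT46, IFT88 and IFT81. In order of the WT level they ran DHC1b, IFT20, FLA10, IFT46, IFT172, IFT81 and IFT88. The first 2 places were thus the same in both genotypes, and the remaining places were not. The table gives no spread, so whether neighbours in these orders differ cannot be told. IFT172 and FLA10, at 8.93% and 8.77% in cmd1 KO, lay much closer together than the 5.56 points that 1 fully methylated site would add to FLA10. In WT, FLA10, IFT46 and IFT172 lay between 1.79% and 1.60%, and 1 fully methylated site would add 1.15 points or more to any of them.

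**Figure D2:**
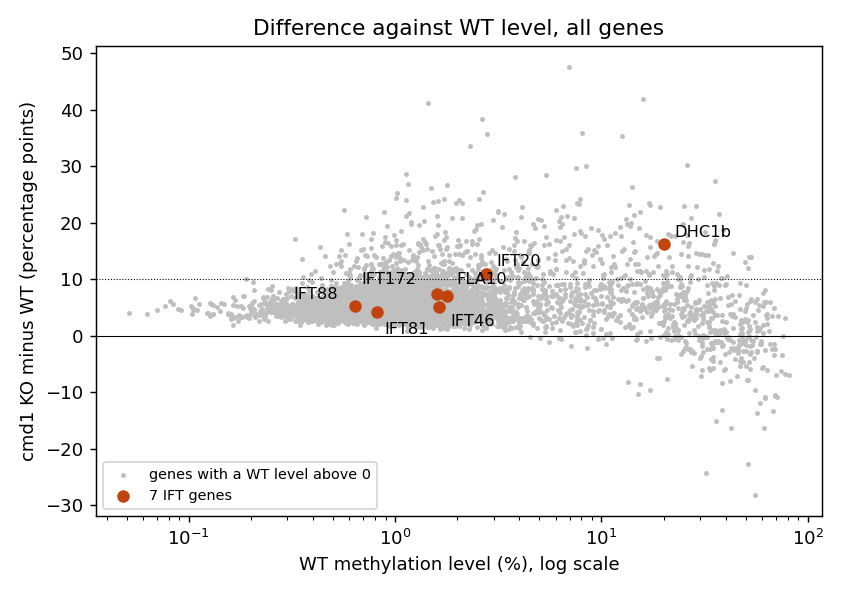
Difference in percentage points (cmd1 KO minus WT) against the WT level in percent (log scale), with each gene above 0 in WT in grey, the 7 IFT genes in red, and a dotted line at 10 points. DHC1b at 16.3 points and IFT20 at 11.0 points lie above the line, and the other 5 lie between 4.18 and 7.33 points.

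A difference of at least 10 points, used as the size rule, was reached by DHC1b and IFT20, 2 of the 7 genes, both higher in cmd1 KO. Over all genes, 3.5% reached it in that direction. In the opposite direction it was reached by 0 of the 7 and by 0.0923% of all genes. At 5 points the count was 6 of 7, against 41.7% of all genes, and at 20 points it was 0 of 7, against 0.404%. The lower cmd1 KO levels, under either assumed site number, ended the call at 10 points for both DHC1b and IFT20. With each column centred on a common median, IFT20 no longer passed, at 6.16 points, while DHC1b did, at 11.4 points.

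Dividing the summed cmd1 KO levels by the WT site number gave 26.8% for DHC1b and 5.26% for IFT20 in cmd1 KO, which is 6.70 and 2.50 points above WT. The other 5 genes then lay between 0.09 points above WT, in IFT172, and 1.11 points, in IFT46. All 7 were still higher in cmd1 KO, as were 92.1% of all genes, and 0 of the 7 were higher by 10 points, against 1.07% of all genes. A larger divisor was 1.52 times the WT site number, the median site ratio of genes at 40% or more in WT. The 67 genes within 10% of the WT level of DHC1b had a lower median site ratio, 1.24, which was not used as a divisor. With 1.52 times the WT site number, 3 of the 7 genes, IFT88, IFT46 and IFT20, lay above WT, against 62.9% of all genes. IFT20 then stood 0.70 points above WT, while DHC1b stood at 17.6% in cmd1 KO, against 20.1% in WT. The differences of FLA10, IFT81 and IFT172 were then -0.35, -0.12 and -0.49 points. These lower values follow partly from counting absent sites as 0, and they are bounds under an assumed site number, not measured losses.

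**Figure D3:**
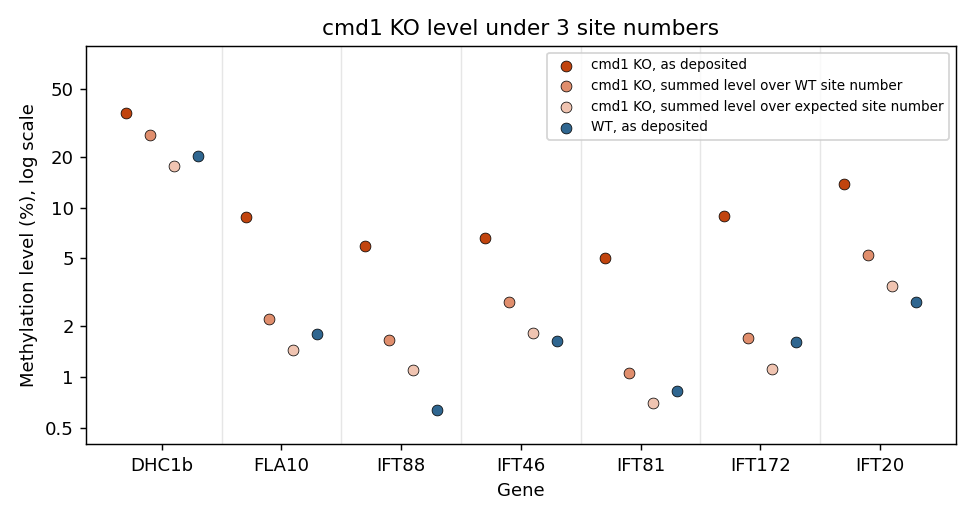
Level in percent (log scale) of each IFT gene, with the deposited cmd1 KO mean, the cmd1 KO sum over the WT site number, the cmd1 KO sum over 1.52 times the WT site number, and the WT mean from left to right. With 1.52 times the WT site number the value lies below WT in DHC1b, FLA10, IFT81 and IFT172 and above it in IFT88, IFT46 and IFT20.

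The summed level, that is the level times the number of listed sites, is not altered when sites at 0 are dropped from a list, though it is lowered when repeated levels above 0 are. It was 15.3 in cmd1 KO and 11.4 in WT for DHC1b, where 1 stands for 1 fully methylated site. It was 3.58 in cmd1 KO and 1.87 in WT for IFT20, and 2.39 and 1.42 for IFT46. IFT81 had 1.95 in cmd1 KO and 1.51 in WT, and FLA10 had 1.58 and 1.29. IFT88 had 1.25 in cmd1 KO and 0.48 in WT, the largest ratio of the 7 at 2.60. IFT172 had 0.63 in cmd1 KO and 0.59 in WT, the smallest ratio at 1.06. The sum was higher in cmd1 KO in all 7 genes, against 92.9% of all genes, but the median ratio of the sums was 1.33 in the 7 genes and 1.71 over all genes. On this scale 2 of the 7, IFT88 and IFT20, exceeded the median of all genes, whereas 6 of 7 did so for the difference of the deposited means. The number of cytosines covered in each genotype was not analysed here, and more covered sites would also raise a sum.

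**Figure D4:**
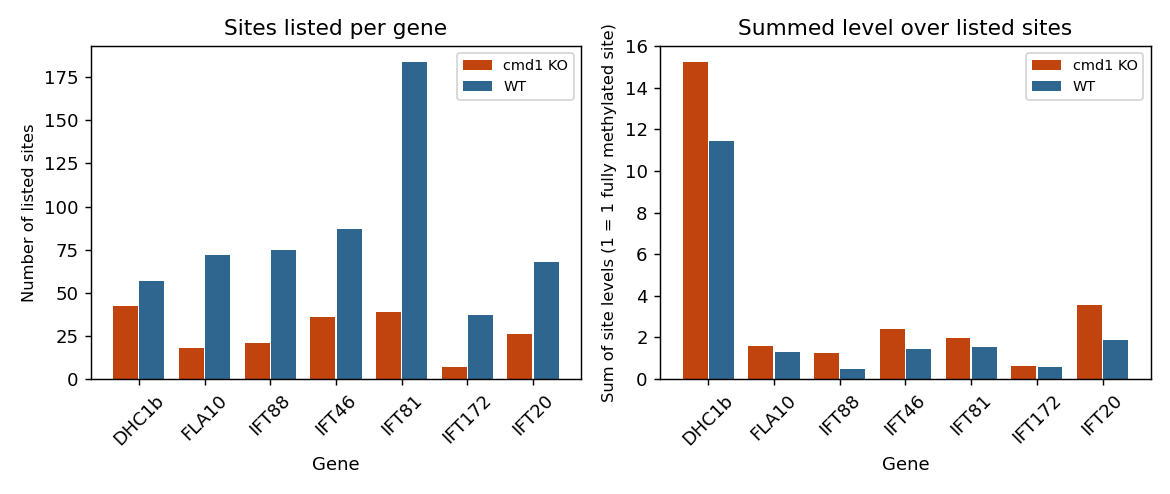
Number of listed sites (left) and sum of site levels (right) per IFT gene, with cmd1 KO left of WT in each pair. Site numbers are lower in cmd1 KO in all 7 genes, while the sums are higher in cmd1 KO in all 7, by the least in IFT172 (0.63 and 0.59).

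The sums also cap the level of any 1 site. In IFT172 no listed site can have exceeded 62.5% in cmd1 KO or 59.1% in WT. In IFT88 no listed WT site can have exceeded 47.8%. These 2 genes therefore held no fully methylated site in the WT list. The DHC1b sums, by contrast, need at least 16 methylated sites in cmd1 KO and at least 12 in WT.

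Ranked by p in the authors' deposited table, the genes came in another order than by their differences. After Benjamini-Hochberg adjustment over all genes, all 7 passed 0.05 with cmd1 KO higher, as did 97.6% of all genes. In the authors' deposited table IFT81, with the smallest difference and the most WT sites, had the smallest p of the 7 (2.26e-22, adjusted 3.09e-20), smaller than in 99.3% of genes. DHC1b, with the largest difference, had p = 2.83e-04 in the authors' deposited table (adjusted 3.05e-04), larger than in 93.0% of genes. IFT172, with the fewest sites, had the largest p of the 7 in the authors' deposited table, 8.30e-04 (adjusted 8.81e-04). The test behind these values, and what it took as its replicates, are not named in the sources used here. With 1 WT library, these p-values cannot measure the spread between WT cultures.

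The values of the IFT genes were also set beside those of the genes next to them. Whether a value belongs to a wider stretch of chromosome was not tested. For each IFT gene the 10 loci on either side were taken in locus order. All 20 flanking loci of DHC1b had less methylation in WT, from 0.57% to 2.91%, than the 20.1% of DHC1b itself. Their median difference was 5.22 points and their largest 12.6, so DHC1b exceeded all 20 in level and in difference. The directly adjacent loci stood at 8.26% and 4.79% in cmd1 KO and at 2.66% and 1.33% in WT. IFT20 likewise exceeded all 20 flanking loci in its difference, whose median there was 4.96 points. Its neighbour on 1 side, Cre02.g090000, was lower in cmd1 KO, at 9.02% over 9 listed sites, against 10.5% over 17 listed sites in WT. The flanking loci of FLA10, IFT88, IFT81 and IFT172 had median differences of 4.50 to 5.06 points, near that of all genes, and these 4 genes exceeded 15, 13, 9 and 17 of their 20 flanking loci.

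The loci around IFT46 had larger differences than IFT46 itself. Its 20 flanking loci had a median difference of 9.25 points, larger than that of 95.7% of all genes. Of these loci, 9 were higher in cmd1 KO by at least 10 points, against 3.5% of all genes. IFT46 itself, at 5.01 points, was below 17 of its 20 flanking loci. The WT level of 11 of these loci was 2% or more, with a maximum of 17.5%, and IFT46 stood at 1.64%. The median depended on the width: with 5 loci on each side it was 8.56 points, and with 20 on each side 5.69 points. The 2 loci beyond the one directly after IFT46 carried identical values in all 4 columns, and with these counted once the median was 8.64 points and 8 loci were past 10 points. The cmd1 KO level was above that of IFT46 in 18 of the 20. The ratio of cmd1 KO to WT site numbers was 0.41 for IFT46, above that of 81.2% of genes. Its median was 0.61 in the flanking loci and 0.31 over all genes.

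**Figure D5:**
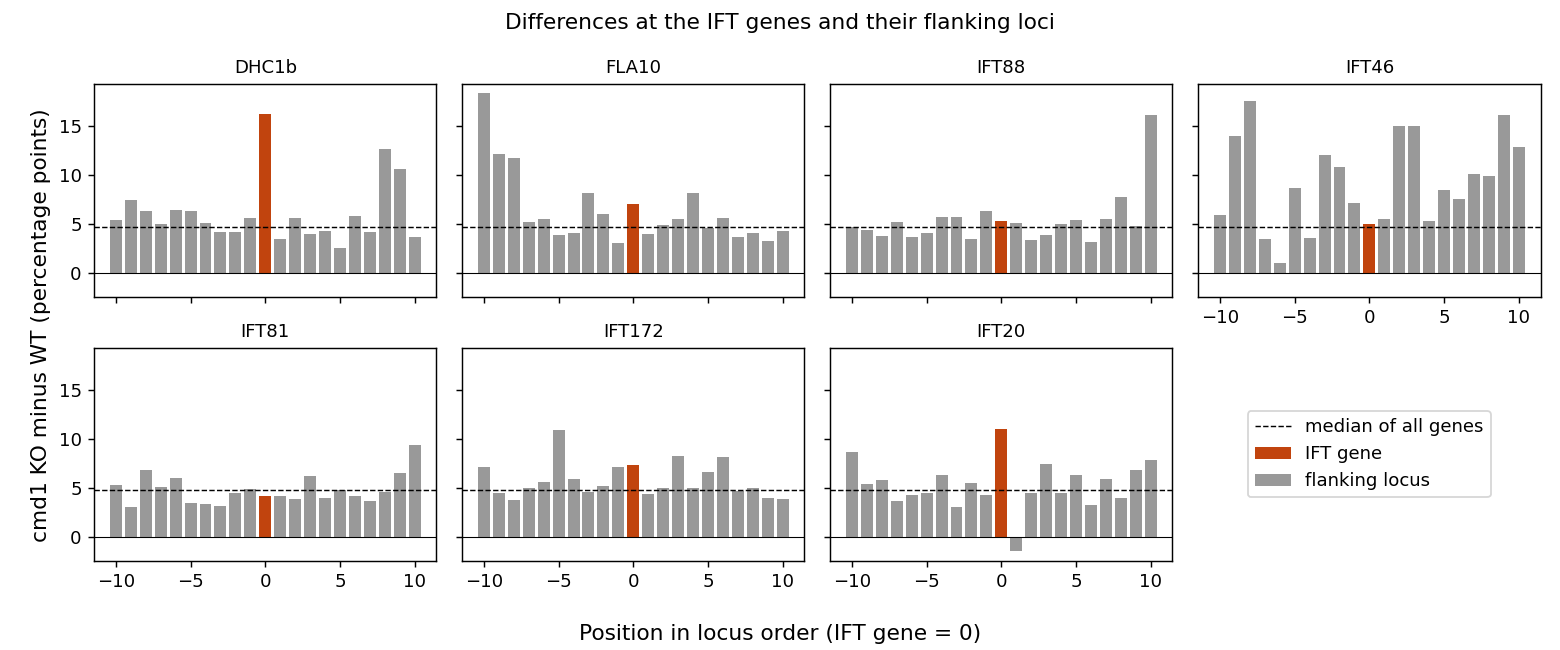
Difference in percentage points (cmd1 KO minus WT) of each IFT gene (red, position 0) and of the 10 loci on each side in locus order (grey), with the median of all genes dashed. DHC1b and IFT20 lie above all of their flanking loci, and IFT46, at 5.01 points, lies among loci with a median of 9.25 points.

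The 3 genes on chromosome 17 differed among themselves. The median difference of the 1136 genes of that chromosome was 4.62 points, and IFT172, FLA10 and IFT81 exceeded 89.6%, 88.5% and 36.4% of them. Over the 140 flanking loci of all 7 genes, the median level was 6.43% in cmd1 KO and 1.09% in WT, with a median difference of 5.12 points. Of these 140 loci, 11.4% were higher in cmd1 KO by at least 10 points, against 3.5% of all genes. Around IFT46 lay 9 of the 16 such loci.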

How the data were processed

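The sources used here give 1 deposited table with 17527 entries, of which 201 without levels were left out. Per the file headers it holds the authors' counts of listed sites (not reads), methylation levels as a fraction (printed as percent), a difference, a ratio (fold) and a p-value. The deposited ratio was not used. The submitters' processing notes name BSMAP, Trimmomatic 0.36 and FastQC 0.11.5, and the sources used here state no genome build, site filter, cytosine context, gene region or conversion rate. Read depth is unknown, so no interval is given.

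Differences, sums, ranks and flanking medians were computed with Python 3.11.15, pandas 2.3.3 and numpy 2.4.6, and the helper functions were tested on simulated data. No test was possible with 1 value per genotype. The size rule was 10 points. Alternatives were other sizes, a minimum of 20 sites, centring, other cmd1 KO site numbers and other flank widths.

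Locus order was taken from the RefSeq table of assembly Chlamydomonas_reinhardtii_v5.5, which holds 17525 of the entries. It gave 0 symbols, so the 7 names, which came with the list of loci, could not be checked in the files. The gene functions given above rest on these names. Other IFT, BBSome and motor genes and the tubulin genes could not be matched by name and were not analysed here. Named genes are the 7 members, and 1 adjacent locus is named after its values were seen. The members were chosen with earlier results of these data known.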

Additional observations from a re-analysis of the deposited data

How the results depend on the processing

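Values depended most on the cmd1 KO site number. With the WT site number where larger, the 7 genes had a median cmd1 KO level of 2.19% and a median difference of 1.02 points, against 0.74 points over all genes and 0.83 points over flanking loci. Then 0 of the 7, and 186 of all genes, were higher by 10 points. With 1.52 times the WT site number, the median level was 1.44%, the median difference -0.12 points (all genes 0.13, flanking loci 0.12), 3 of 7 were higher, and 0 of the 7 and 76 of all genes passed 10 points. The differences of DHC1b (-2.47 points), FLA10 (-0.35), IFT81 (-0.12) and IFT172 (-0.49) then turned negative, which counting missing sites as 0 favours by construction. Centring both columns gave a median level of 6.36%, a median difference of 2.15 points (all genes -0.11, flanking loci 0.29), IFT81 at -0.65 points, and 1 of the 7 (DHC1b, with IFT20 lost at 6.16 points) and 208 of all genes past 10 points. With 20 or more sites in both columns FLA10 and IFT172 dropped out. The remaining 5 had a median level of 6.65%, a median difference of 5.29 points (all genes 4.72, flanking loci 5.31) and a median site ratio of 0.38, against 0.28 for all 7. At 5 points 6 of the 7 and 7226 of all genes passed, and at 20 points 0 and 70. With 5 or 20 flanking loci on each side, the flanking median was 4.98 or 4.85 points. Without DHC1b, an alternative chosen after seeing the data, the median difference was 6.14 points and 1 gene passed 10 points. No library could be left out, because the cmd1 KO libraries share 1 column. No paired analysis was possible, because the sample labels name no pairs and the columns carry no replicate number.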

Other observations

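Over the whole table, 36 genes, 0.208%, carried the same 4 values (both levels and both site numbers) as another gene, and 0 of the 7 IFT genes did. The pair next to IFT46 stood at 17.2% over 22 listed sites in cmd1 KO and 2.22% over 22 listed sites in WT.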
